A study of Mus musculus with 4 samples.

Results

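The genes described here are 36 genes of macrophages and other myeloid cells, among 12393 mouse genes measured in adult testis. The list was given by gene name. It holds complement C1q, Fc receptors and their adaptors, scavenger receptors, lysosomal proteins, leukocyte surface proteins, myeloid regulators and macrophage enzymes. The measured values played no part in the choice of a gene, but the list was drawn up with earlier results of these data known. All 36 genes had a probe set on the array. Where a gene had more than 1, the probe set with the highest mean log2 signal stands for it, which touched 9 genes. The 16 further probe sets of these genes had the same direction in tubules over whole testis in 11 cases in XX/Sry and 15 in W/Wv. In XX/Sry over W/Wv they had the same direction in 10 cases in tubules and 11 in whole testis.

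The study set side by side the testes of 2 kinds of adult male mice that lack their own complete spermatogenesis. XX/Sry males are chromosomally female animals turned male by a transgene that carries Sry. W/Wv males carry 2 mutant alleles of Kit, the receptor germ cells and mast cells depend on, on a WB x B6 background, and were bought from a breeder. RNA came from seminiferous tubules freed by collagenase (5 mg/ml, 37 °C, 40 min) and washed over a 70 µm strainer to take away interstitial cells, or from the whole testis. Each of the 4 groups had 1 array: XX/Sry tubules, W/Wv tubules, XX/Sry whole testis and W/Wv whole testis. The sources used here give no strain for XX/Sry males, so genotype and strain cannot be told apart. They give neither the number of animals behind a sample nor whether a genotype's 2 preparations share animals. With no replicates, each ratio below compares 2 arrays and carries no error of its own.

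Macrophages are the main immune cells of the testis. They lie in the interstitium, often in contact with Leydig cells, and a further population lies on the outer surface of the tubules near the spermatogonia. They depend on signalling through the CSF1 receptor and on the transcription factor PU.1, encoded by Spi1. They clear dead cells and immune complexes through Fc, complement and scavenger receptors, and degrade what they take up in lysosomes. In whole tissue, a lower signal of these genes can mean, among other things, fewer macrophages or less RNA per macrophage. These readings cannot be told apart here, and the part of other cell types in the signals was not tested.

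Signals are the authors' MAS5 intensities on a linear scale. The Xist and Eif2s3y signals matched the labels of the 4 arrays. Kit, the mutated gene of W/Wv males, had 569 in XX/Sry tubules and 139 in W/Wv tubules, against 893 in XX/Sry whole testis and 256 in W/Wv whole testis. Median signals of all probe sets lay between 157 and 183. A background bound was set on each array by the brightest of 27 bacterial probe sets that match no mouse gene, and ran from 46.1 to 76.3. Where the dimmer signal of a pair was under the bound of its array, only a lower limit of the fold is stated ("at least"), computed against the higher bound of the pair. Counts of genes use the measured ratio unless stated. Of the 36 genes, 26 were above the bound in XX/Sry tubules and 35 in W/Wv tubules, against 34 in XX/Sry whole testis and 35 in W/Wv whole testis, and 25 were above it on all 4 arrays. Of all 12393 genes, 9134 were above it in XX/Sry tubules and 9737 in W/Wv tubules. In whole testis 9372 were in XX/Sry and 9468 in W/Wv, and 8065 were on all 4 arrays. The bound itself was higher in XX/Sry tubules, at 61.0, than in W/Wv tubules, at 46.1. The W/Wv tubules array stood apart in its hybridisation spikes, which are added in equal amounts to each sample. Their median log2 deviation was 0.46 there, against -0.17 for XX/Sry tubules, -0.18 for XX/Sry whole testis and -0.09 for W/Wv whole testis. Setting the arrays to equal spike signal lowers every tubules-over-whole-testis value in W/Wv by 0.55 on the log2 scale, and raises every XX/Sry over W/Wv value in tubules by 0.63. The 3′ to 5′ signal ratio of Gapdh, a sign of RNA integrity, was 0.930 in XX/Sry tubules and 0.823 in W/Wv tubules, against 0.733 in XX/Sry whole testis and 0.974 in W/Wv whole testis. That of actin was highest in XX/Sry tubules, at 1.85, with 1.58 in W/Wv tubules. In whole testis it was 1.41 in XX/Sry and 1.74 in W/Wv.

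Most of the 36 genes had a lower signal in isolated tubules than in whole testis, in both genotypes. The study's own criterion was 2-fold or more in both of a pair of comparisons, XX/Sry over W/Wv in both preparations. Here it was carried over to tubules against whole testis in both genotypes. By the criterion so used, 21 of 36 were lower in tubules and 0 were higher, against 5.74% of all 12393 genes lower and 1.32% higher. Among members of at least median mean signal, 12 of 20 were lower by that criterion, against 2.78% of genes that bright. By any amount, 30 of 36 were lower in both genotypes, against 34.4% of all genes. In XX/Sry, 27 were 2-fold or more lower in tubules (14.1% of all genes) and 2 were higher (9.23%). In W/Wv, 22 were 2-fold or more lower (18.3%) and 1 was higher (7.7%). The median log2 ratio of tubules over whole testis was -1.85 in XX/Sry and -1.38 in W/Wv, beside medians over all genes of -0.02 in XX/Sry and -0.15 in W/Wv. The members' median thus differed from that of all genes by -1.83 in XX/Sry and by -1.23 in W/Wv, and a factor per array cannot alter these differences. With signals held to the background bound, 19 genes met the criterion. The plot of tubules-over-whole-testis ratios gives every member.

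**Figure D1:**
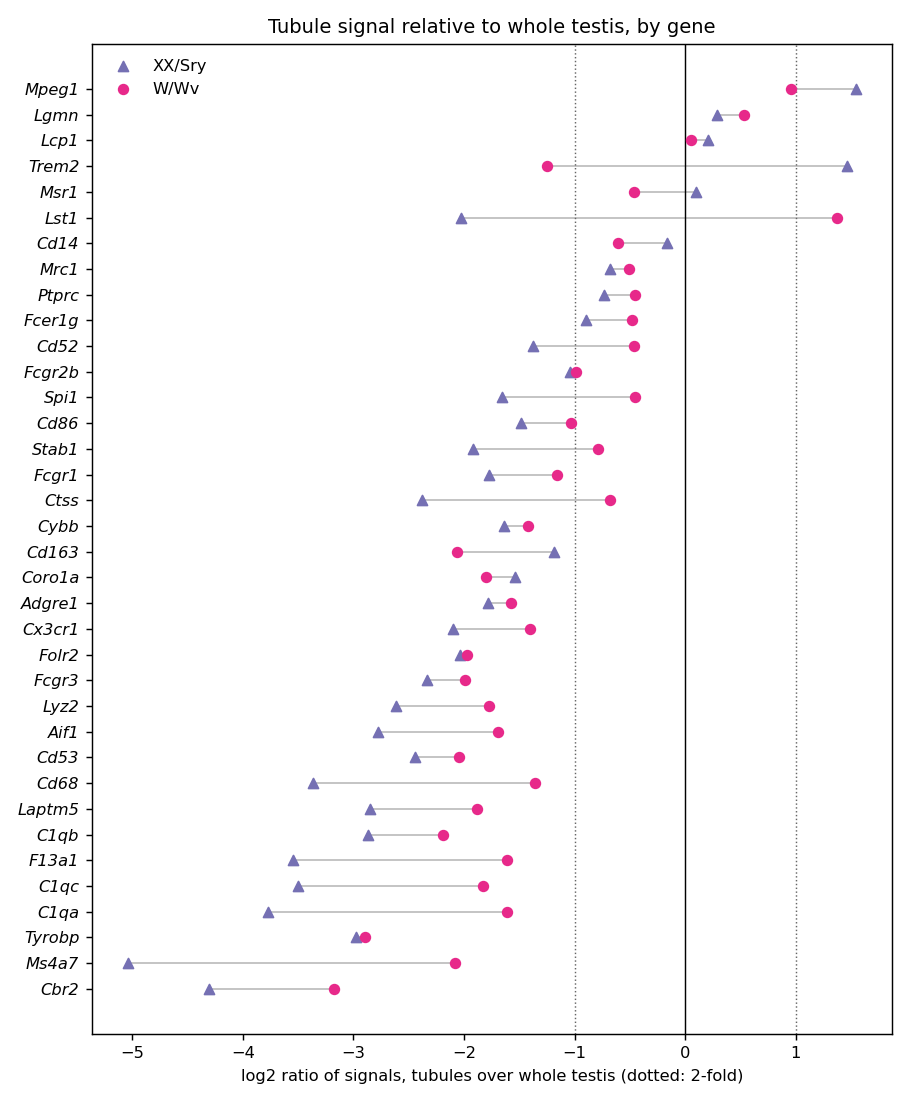
Log2 ratio of tubules over whole testis for each of the 36 genes, in XX/Sry and in W/Wv, sorted by their mean, with 0 as a solid line and 2-fold either way as dotted lines. The points of the 3 C1q genes, Cbr2, Tyrobp and Ms4a7 lie beyond the 2-fold line in both genotypes, while those of Mpeg1, Lgmn and Lcp1 lie on the other side of 0, for the Lcp1 probe set used.

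Complement C1q starts the classical complement pathway and marks material for clearance, and its 3 chains are made largely by macrophages. C1qa had 175 in XX/Sry tubules and 455 in W/Wv tubules, against 2392 in XX/Sry whole testis and 1386 in W/Wv whole testis. C1qb had 306 in XX/Sry tubules and 375 in W/Wv tubules, against 2228 in XX/Sry whole testis and 1711 in W/Wv whole testis. C1qc had 126 in XX/Sry tubules and 275 in W/Wv tubules, against 1428 in XX/Sry whole testis and 976 in W/Wv whole testis. On each array pair the tubules lay below the whole testis for all 3 chains, and XX/Sry tubules were the lowest of the 4 samples each time. C1qa was 13.7-fold lower in tubules in XX/Sry and 3.05-fold lower in W/Wv, C1qb was 7.29-fold lower in tubules in XX/Sry and 4.56-fold lower in W/Wv, and C1qc was 11.4-fold lower in tubules in XX/Sry and 3.55-fold lower in W/Wv. The summed signal of the 3 chains was 606 in XX/Sry tubules and 1105 in W/Wv tubules, against 6048 in XX/Sry whole testis and 4074 in W/Wv whole testis. The 3 genes lie next to each other on chromosome 4 with no other gene between them in the RefSeq annotation.

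The promoters of C1qb and C1qc are shown because these neighbouring genes were lower together, that of Cbr2 because it had the widest gap in W/Wv, and those of Mpeg1 and Lgmn because they ran the other way. Each line gives the 250 bases before the start of the gene, 5′ to 3′ on the strand of the gene, from RefSeq on GRCm38.p6. Capitals mark GAGGAA or its reverse complement TTCCTC, a core of the site PU.1 binds.
C1qb, chr4:136886201-136886450, minus strand: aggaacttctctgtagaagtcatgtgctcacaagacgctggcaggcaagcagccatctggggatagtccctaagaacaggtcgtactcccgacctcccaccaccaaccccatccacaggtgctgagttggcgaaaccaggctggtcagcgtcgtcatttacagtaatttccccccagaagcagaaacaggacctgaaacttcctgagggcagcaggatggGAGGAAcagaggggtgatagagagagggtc
C1qc, chr4:136892915-136893164, minus strand: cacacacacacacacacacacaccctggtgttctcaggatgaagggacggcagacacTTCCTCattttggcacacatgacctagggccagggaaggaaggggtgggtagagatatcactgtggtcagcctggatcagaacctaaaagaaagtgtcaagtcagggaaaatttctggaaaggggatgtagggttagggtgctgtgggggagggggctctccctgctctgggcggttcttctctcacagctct
Cbr2, chr11:120732022-120732271, minus strand: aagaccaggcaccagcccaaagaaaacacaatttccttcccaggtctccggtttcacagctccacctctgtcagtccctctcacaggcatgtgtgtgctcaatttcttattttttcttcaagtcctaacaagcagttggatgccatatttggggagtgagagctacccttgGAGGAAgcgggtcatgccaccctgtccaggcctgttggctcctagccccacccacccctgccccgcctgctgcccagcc
Mpeg1, chr19:12460520-12460769, plus strand: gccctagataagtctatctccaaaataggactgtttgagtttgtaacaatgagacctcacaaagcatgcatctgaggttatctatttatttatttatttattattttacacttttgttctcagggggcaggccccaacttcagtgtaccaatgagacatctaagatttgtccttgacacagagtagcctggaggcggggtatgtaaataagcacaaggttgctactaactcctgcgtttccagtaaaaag
Lgmn, chr12:102439729-102439978, minus strand: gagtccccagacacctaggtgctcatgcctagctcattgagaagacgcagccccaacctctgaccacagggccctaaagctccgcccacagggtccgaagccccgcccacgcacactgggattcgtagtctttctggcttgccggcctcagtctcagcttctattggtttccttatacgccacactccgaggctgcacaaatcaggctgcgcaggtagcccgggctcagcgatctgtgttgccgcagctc
The letters lay 30 bases before the start of C1qb, 193 before that of C1qc and 79 before that of Cbr2, and were in neither the Mpeg1 nor the Lgmn stretch. By gene ID, 27 of the 36 genes matched the table of promoter windows, which run from 250 bases before to 50 after each start. GAGGAA was searched on both strands and was found in windows of 17 of the 27 (63.0%), against 31.3% of all 27025 genes in the table. Counted by window it was in 19 of 35 (54.3%), against 28.3% of 32851 windows. Some genes 2-fold or more lower in tubules in both genotypes lacked it, with 0 matches in the windows of Lyz2, Folr2, Cx3cr1, Coro1a and Cd163. Mrc1, less than 2-fold lower in tubules, had 3. The printed stretches thus do not stand for the list, and whether the letters go with the tubule ratio was not tested. A match is a run of letters and shows no binding.

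Fc receptors bind antibody, and Fcer1g and Tyrobp encode the adaptors that pass on the signal of these and related receptors through ITAM motifs. Tyrobp had 140.2 in XX/Sry tubules and 169 in W/Wv tubules, against 1105 in XX/Sry whole testis and 1256 in W/Wv whole testis, and was 7.88-fold lower in tubules in XX/Sry and 7.44-fold lower in W/Wv. Fcgr3, an activating receptor for IgG, had 60.0 in XX/Sry tubules and 92.4 in W/Wv tubules, against 302 in XX/Sry whole testis and 368 in W/Wv whole testis. It was at least 4.73-fold lower in tubules in XX/Sry and 3.98-fold lower in W/Wv, the XX/Sry tubules signal being under the bound. Fcgr2b, the inhibitory IgG receptor, had 482 in XX/Sry tubules and 590.2 in W/Wv tubules, against 994 in XX/Sry whole testis and 1173 in W/Wv whole testis. Both tubule samples lay below both whole testis samples, 2.06-fold lower in tubules in XX/Sry and 1.99-fold lower in W/Wv. Its probe set carries a suffix for probes that can match more than 1 transcript. Its 3 other probe sets gave log2 ratios from -1.01 to 0.14 in XX/Sry and from -0.64 to -0.48 in W/Wv, and 1 of them was higher in XX/Sry tubules (428) than in XX/Sry whole testis (388). Fcer1g had 387 in XX/Sry tubules and 589 in W/Wv tubules, against 722 in XX/Sry whole testis and 821 in W/Wv whole testis, and was 1.87-fold lower in tubules in XX/Sry and 1.39-fold lower in W/Wv, short of 2-fold. Fcgr1, the high-affinity IgG receptor, was at least 2.78-fold lower in tubules in XX/Sry and 2.23-fold lower in W/Wv. Trem2, a lipid-sensing receptor that signals through Tyrobp, had 2 probe sets that disagreed: the one used here gave 67.7 in XX/Sry tubules and 52.4 in W/Wv tubules, against 24.6 in XX/Sry whole testis and 124 in W/Wv whole testis. The other gave 12.9 in XX/Sry tubules and 14.5 in W/Wv tubules, against 161 in XX/Sry whole testis and 189 in W/Wv whole testis. Over the 6 genes of the group the median log2 ratio was -1.41 in XX/Sry and -1.20 in W/Wv, with 3 of 6 lower by 2-fold or more in both genotypes.

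**Figure D2:**
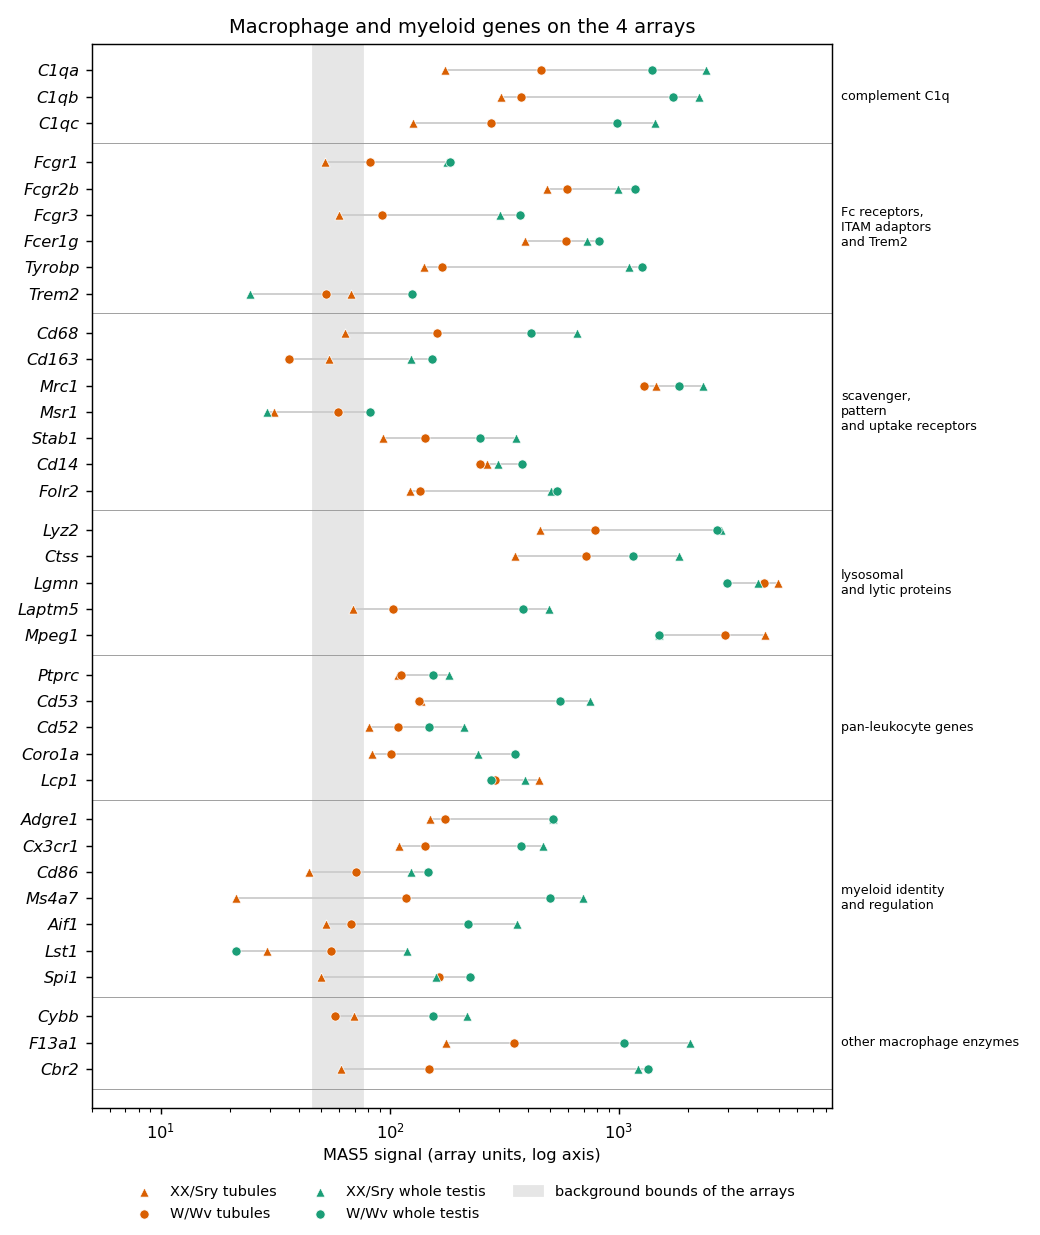
MAS5 signal (log axis) of each of the 36 genes on the 4 arrays, by role, with the range of the 4 background bounds as a grey band. For Cbr2, Tyrobp and the C1q genes both tubule points lie well below both whole testis points, and for Mpeg1 they lie above.

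Among receptors for scavenging and uptake, Cd68, a lysosomal glycoprotein of macrophages, had 63.7 in XX/Sry tubules and 160.2 in W/Wv tubules, against 655 in XX/Sry whole testis and 411 in W/Wv whole testis. Folr2, a folate receptor of tissue macrophages, had 123 in XX/Sry tubules and 136 in W/Wv tubules, against 503 in XX/Sry whole testis and 534 in W/Wv whole testis. Both genes had whole testis signals above both tubule signals: Cd68 was 10.3-fold lower in tubules in XX/Sry and 2.56-fold lower in W/Wv, and Folr2 was 4.10-fold lower in tubules in XX/Sry and 3.93-fold lower in W/Wv. The Cd68 signal in XX/Sry tubules lay just above the bound of that array, 61.0, so its XX/Sry fold is uncertain. Stab1, a scavenger receptor that endothelium also makes, had 93.6 in XX/Sry tubules and 142 in W/Wv tubules, against 355 in XX/Sry whole testis and 246 in W/Wv whole testis. It was 3.79-fold lower in tubules in XX/Sry and 1.73-fold lower in W/Wv. Mrc1, the mannose receptor, had 1451 in XX/Sry tubules and 1288 in W/Wv tubules, against 2326 in XX/Sry whole testis and 1831 in W/Wv whole testis. Its tubule signals also lay below both whole testis signals, though by less than 2-fold, 1.60-fold lower in tubules in XX/Sry and 1.42-fold lower in W/Wv. Cd14, a co-receptor for bacterial lipopolysaccharide, had 266 in XX/Sry tubules and 247 in W/Wv tubules, against 297 in XX/Sry whole testis and 378 in W/Wv whole testis, and was 1.12-fold lower in tubules in XX/Sry and 1.53-fold lower in W/Wv. The scavenger receptors Cd163 and Msr1 lay near the bound in tubules. Cd163 was at least 1.93-fold lower in tubules in XX/Sry and at least 2.00-fold lower in W/Wv. Msr1 was 1.38-fold lower in tubules in W/Wv, and both XX/Sry signals of the probe set used were under the bound. Its 3 other probe sets gave W/Wv log2 ratios from -4.38 to -1.79, each with a signal under the bound in W/Wv tubules, and 1 of them had 76.9 in XX/Sry whole testis, above the bound. The group's median log2 ratio was -1.19 in XX/Sry and -0.79 in W/Wv, with 3 of 7 genes lower by the criterion.

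The lysosomal and lytic proteins were divided. Lyz2, the lysozyme of macrophages, had 453 in XX/Sry tubules and 781 in W/Wv tubules, against 2776 in XX/Sry whole testis and 2675 in W/Wv whole testis. Laptm5, a lysosomal membrane protein of blood cells, had 68.7 in XX/Sry tubules and 103 in W/Wv tubules, against 496 in XX/Sry whole testis and 381 in W/Wv whole testis. Lyz2 was 6.13-fold lower in tubules in XX/Sry and 3.42-fold lower in W/Wv, and Laptm5 was 7.22-fold lower in tubules in XX/Sry and 3.69-fold lower in W/Wv, each with non-overlapping tubule and whole testis signals. A second Laptm5 probe set, above the bound on all 4 arrays, gave smaller falls, with log2 ratios of -1.34 in XX/Sry and -1.07 in W/Wv. Another, under the bound in both tubule samples, gave -1.92 in XX/Sry and -1.65 in W/Wv. The Lyz2 signal may include its close copy Lyz1. Ctss, cathepsin S, which trims the invariant chain of MHC class II, had 353 in XX/Sry tubules and 719.5 in W/Wv tubules, against 1833 in XX/Sry whole testis and 1149.9 in W/Wv whole testis. It was 5.20-fold lower in tubules in XX/Sry and 1.60-fold lower in W/Wv, so that it met the criterion in XX/Sry and not in W/Wv. Mpeg1, a pore-forming protein of phagocytes, ran the other way, with 4355 in XX/Sry tubules and 2892 in W/Wv tubules, against 1491 in XX/Sry whole testis and 1487 in W/Wv whole testis. Both tubule signals exceeded both whole testis signals, by 2.92-fold in XX/Sry and 1.94-fold in W/Wv. Lgmn, legumain, a lysosomal protease that other cells make too, had 4947 in XX/Sry tubules and 4297 in W/Wv tubules, against 4050.4 in XX/Sry whole testis and 2969 in W/Wv whole testis. Its tubule signals were the higher ones, by 1.22-fold in XX/Sry and 1.45-fold in W/Wv, although at equal spike signal the W/Wv log2 ratio was -0.01. Mpeg1 at equal spike signal kept its direction, with log2 ratios of 1.53 in XX/Sry and 0.41 in W/Wv. The cell types behind the Mpeg1 and Lgmn signals were not tested.

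Genes of all leukocytes are shared by macrophages, lymphocytes and granulocytes. Cd53, a tetraspanin, had 137 in XX/Sry tubules and 134 in W/Wv tubules, against 746 in XX/Sry whole testis and 554 in W/Wv whole testis, and was 5.45-fold lower in tubules in XX/Sry and 4.13-fold lower in W/Wv. Coro1a, an actin regulator, had 83.5 in XX/Sry tubules and 101 in W/Wv tubules, against 243 in XX/Sry whole testis and 353 in W/Wv whole testis, and was 2.90-fold lower in tubules in XX/Sry and 3.49-fold lower in W/Wv. For both, whole testis lay above tubules in each genotype with no overlap. Cd52, a small surface glycoprotein, had 80.9 in XX/Sry tubules and 108 in W/Wv tubules, against 211 in XX/Sry whole testis and 148 in W/Wv whole testis, and was 2.60-fold lower in tubules in XX/Sry and 1.37-fold lower in W/Wv. Ptprc, which encodes CD45, had 108 in XX/Sry tubules and 112 in W/Wv tubules, against 180.2 in XX/Sry whole testis and 153 in W/Wv whole testis. Its ratios were short of 2-fold, 1.66-fold lower in tubules in XX/Sry and 1.37-fold lower in W/Wv. Lcp1, the actin-bundling protein L-plastin, had 448 in XX/Sry tubules and 286 in W/Wv tubules, against 389 in XX/Sry whole testis and 275 in W/Wv whole testis. Its tubule signals were 1.15-fold higher in XX/Sry and 1.04-fold higher in W/Wv, and the W/Wv log2 ratio was -0.49 at equal spike signal. A second Lcp1 probe set, above the bound on all 4 arrays, ran the other way, with log2 ratios of -0.27 in XX/Sry and -0.28 in W/Wv. The group's median log2 ratio was -1.38 in XX/Sry and -0.46 in W/Wv.

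Of the genes of myeloid identity and regulation, Adgre1, which encodes the macrophage antigen F4/80, had 149 in XX/Sry tubules and 174 in W/Wv tubules, against 515 in XX/Sry whole testis and 517 in W/Wv whole testis. Cx3cr1, the fractalkine receptor, had 109 in XX/Sry tubules and 142 in W/Wv tubules, against 466 in XX/Sry whole testis and 375 in W/Wv whole testis. Adgre1 was 3.45-fold lower in tubules in XX/Sry and 2.97-fold lower in W/Wv, and Cx3cr1 was 4.28-fold lower in tubules in XX/Sry and 2.65-fold lower in W/Wv, so these defining macrophage genes were above the bound in tubules but lay below both whole testis samples. Ms4a7, a tetraspan membrane protein of macrophages, had 21.3 in XX/Sry tubules and 118 in W/Wv tubules, against 699 in XX/Sry whole testis and 499 in W/Wv whole testis. It was at least 10.9-fold lower in tubules in XX/Sry and 4.24-fold lower in W/Wv, with XX/Sry tubules under the bound. Aif1, which encodes the calcium-binding protein IBA1, had 52.3 in XX/Sry tubules and 67.8 in W/Wv tubules, against 358 in XX/Sry whole testis and 219 in W/Wv whole testis, and was at least 5.60-fold lower in tubules in XX/Sry and 3.23-fold lower in W/Wv. Like that of Fcgr2b, its probe set can match more than 1 transcript. Spi1, which encodes PU.1, had 50.2 in XX/Sry tubules and 164 in W/Wv tubules, against 158 in XX/Sry whole testis and 224 in W/Wv whole testis. Spi1 was at least 2.48-fold lower in tubules in XX/Sry and 1.37-fold lower in W/Wv, and the XX/Sry tubules signal was under the bound. Cd86, a co-stimulatory ligand of T cells, was at least 1.94-fold lower in tubules in XX/Sry and 2.05-fold lower in W/Wv. Lst1, a small leukocyte protein, had 29.0 in XX/Sry tubules, under the bound, and 55.1 in W/Wv tubules, against 119 in XX/Sry whole testis and 21.2, under the bound, in W/Wv whole testis. The median log2 ratio of the 7 genes was -2.03 in XX/Sry and -1.41 in W/Wv, and 5 of them met the criterion.

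The 3 remaining macrophage enzymes all met it. Cbr2, a carbonyl reductase, had 60.9 in XX/Sry tubules and 147 in W/Wv tubules, against 1206 in XX/Sry whole testis and 1333 in W/Wv whole testis. It was at least 18.9-fold lower in tubules in XX/Sry and 9.04-fold lower in W/Wv, the widest gap of any member in W/Wv. F13a1, the A chain of coagulation factor XIII, had 175 in XX/Sry tubules and 347 in W/Wv tubules, against 2041 in XX/Sry whole testis and 1056 in W/Wv whole testis, and was 11.7-fold lower in tubules in XX/Sry and 3.05-fold lower in W/Wv. Cybb, the catalytic chain of the phagocyte NADPH oxidase, lies on the X chromosome and had 69.7 in XX/Sry tubules and 57.6 in W/Wv tubules, against 216 in XX/Sry whole testis and 154 in W/Wv whole testis. It was 3.10-fold lower in tubules in XX/Sry and 2.68-fold lower in W/Wv.

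One model could be tested: an additive limma fit over all 22626 probe sets with a term for genotype and a term for preparation. It takes the genotypes as the repeats of the preparation difference and has 1 residual degree of freedom, so a difference between genotypes in the size of the effect counts as error, and the spread is that between arrays that may be technical. For the preparation term, 13 of the 36 genes fell in tubules at an adjusted p under 0.05 (Benjamini-Hochberg over all probe sets), against 0.977% of all probe sets, and 1 rose, against 0.239%. On simulated data more of the calls of this fit were false than the threshold allows. The fitted log2 difference of Cbr2 was -3.74 ± 0.365 (SE, 4 arrays), with a limma adjusted p of 0.00155. Tyrobp fell by 2.94 ± 0.30 with the same adjusted p in limma. C1qb followed at -2.53 ± 0.276 (limma adjusted p = 0.00238) and Lyz2 at -2.20 ± 0.274 (0.00366). The other genes that fell were C1qc, F13a1, Cd53, C1qa, Ms4a7, Folr2, Laptm5, Cd68 and Adgre1, with limma adjusted p-values from 0.0082 to 0.0466. Mpeg1 rose by 1.25 ± 0.255 (limma adjusted p = 0.0444). Fcgr3 missed the threshold at 0.0525. These calls rest on sharing the spread between probe sets of like brightness: without that trend limma called no probe set at all, although 21 of the 36 genes were lower (6.55% of all probe sets) and 1 higher (2.11%) at an unadjusted p under 0.05. At equal spike signal the fit called 17 of the 36 genes lower, against 1.88% of all probe sets, and 0 higher, against 0.0619%.

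Between genotypes, none of the 36 genes differed by 2-fold in both preparations. By that criterion, which is the study's own, 0 of 36 were lower in XX/Sry (3.22% of all genes were) and 0 were higher (1.98%). Their signals are set side by side in the plot of genotype ratios. In tubules, 7 were 2-fold or more lower in XX/Sry (10.4% of all genes) and 0 higher (11.2%), but at equal spike signal 2 were lower (5.12%) and 3 higher (28.3%). In whole testis, 2 were lower (13.4%) and 1 was higher (8.1%). In the limma fit the genotype term called 0 of the 36 genes, against 0.11% of all probe sets called higher and 0.0398% lower. At an unadjusted p under 0.05 limma also had 0 of the 36, against 3.93% of all probe sets higher and 4.8% lower. The smallest adjusted p was 0.611, for Spi1. The fit counts interaction as error, and the data do not show that the genotypes were alike.

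**Figure D3:**
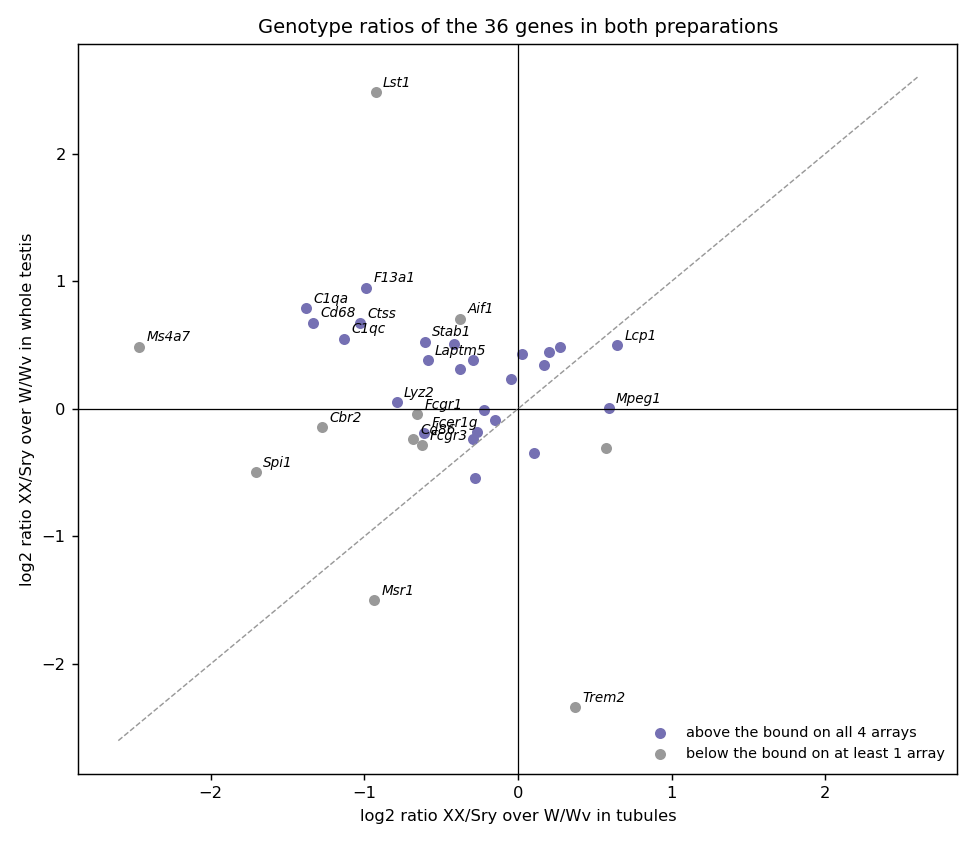
Log2 ratio of XX/Sry over W/Wv for each of the 36 genes, in tubules (horizontal axis) against whole testis (vertical axis), with equal ratios on the dashed line and genes under the bound on any array in grey. C1qa, Cd68, Ctss and F13a1 lie in the upper left, lower in XX/Sry tubules and higher in XX/Sry whole testis, and 29 of the 36 points lie above the dashed line.

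The genotype ratio differed between the preparations. Its log2 median was -0.40 in tubules, with 0.00 over all genes, but at equal spike signal that tubule median was 0.23, with 0.62 over all genes. In whole testis the median was 0.27, with -0.10 over all genes. The members' median minus that of all genes was -0.39 in tubules and 0.38 in whole testis, which no factor per array alters. By any amount, 15 of 36 genes were higher in XX/Sry than in W/Wv whole testis and lower in XX/Sry than in W/Wv tubules, against 19.6% of all genes. At equal spike signal 9 were, against 7.14%. A further 12 were lower in XX/Sry in both preparations (30.4% of all genes), 6 were higher in both (23.8%) and 3 were higher in tubules and lower in whole testis (25.9%). The balance turned at equal spike signal, with 4 lower in both (11.5%), 15 higher in both (42.2%) and 8 higher in tubules and lower in whole testis (39.1%). The double ratio, the genotype ratio in tubules over that in whole testis, takes all 4 arrays and leaves no error for a test. It was below 1 for 29 of 36 genes, against 45.4% of all genes, and at equal spike signal for 17 of 36, against 23.4%. It was 2-fold or more below 1 for 11 of 36, against 12.5% of all genes. At 1.5-fold or more both ways, 5 of 36 genes were higher in XX/Sry whole testis and lower in XX/Sry tubules, against 3.24% of all genes. At equal spike signal 2 were, C1qa and Cd68, against 1.8%. Of the 5, Lst1 rests on signals under the bound.

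All 3 C1q genes had their highest signal in XX/Sry whole testis and their lowest in XX/Sry tubules, but at equal spike signal C1qb was lowest in W/Wv tubules, with a log2 genotype ratio in tubules of 0.33. C1qa in XX/Sry was 2.60-fold lower than in W/Wv in tubules and 1.73-fold higher in whole testis. Cd68 was 2.51-fold lower in tubules, where its XX/Sry signal lay just above the bound, and 1.60-fold higher in whole testis. F13a1 was 1.98-fold lower in tubules and 1.93-fold higher in whole testis, and Ctss was 2.04-fold lower in tubules and 1.59-fold higher in whole testis. For these 4 genes the order held at equal spike signal, with log2 genotype ratios in tubules from -0.75 to -0.36. Tyrobp, Folr2 and Adgre1 differed less between genotypes: Tyrobp was 1.20-fold lower in XX/Sry tubules and 1.14-fold lower in XX/Sry whole testis, Folr2 1.11-fold lower and 1.06-fold lower, and Adgre1 1.17-fold lower and 1.01-fold lower. Their log2 genotype ratios in tubules turned positive at equal spike signal, at 0.36 for Tyrobp, 0.48 for Folr2 and 0.40 for Adgre1. Between genotypes Spi1 was at least 2.68-fold lower in tubules, its XX/Sry signal being under the bound, and 1.41-fold lower in whole testis. Mrc1, Lgmn, Mpeg1, Cd53, Lcp1 and Cybb were higher in XX/Sry in both preparations, from 1.0-fold for Mpeg1 in whole testis to 1.57-fold for Lcp1 in tubules.

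The genes around the list were read from 10 pathway lists, of which 93 of 106 genes were measured and the others were not analysed here. Of the 93, 16 were 2-fold or more lower in tubules in both genotypes and 0 were higher, against 5.74% of all genes lower and 1.32% higher. The same shares stand beside the counts by list and by cell type that follow. The receptor for the growth factors CSF1 and IL-34, Csf1r, had 849 in XX/Sry tubules and 1274 in W/Wv tubules, against 3876 in XX/Sry whole testis and 2703 in W/Wv whole testis. It was 4.56-fold lower in tubules in XX/Sry and 2.12-fold lower in W/Wv. Its ligand Csf1 was 1.93-fold lower in tubules in XX/Sry and 1.55-fold lower in W/Wv. Irf8, a transcription factor that works with PU.1, had 245 in XX/Sry tubules and 359 in W/Wv tubules, against 1474 in XX/Sry whole testis and 1089 in W/Wv whole testis, and was 6.01-fold lower in tubules in XX/Sry and 3.03-fold lower in W/Wv. Klf4, a transcription factor that other cells make too, was 1.15-fold lower in tubules in XX/Sry and 1.66-fold higher in W/Wv. Of the 14 myeloid transcription factors 3 met the criterion, and of the 9 growth factors and receptors 2 did.

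Complement genes beyond C1q had the largest share, 4 of 9, with medians of -1.23 in XX/Sry and -0.96 in W/Wv. Among these 4, Cfp had both W/Wv signals under the bound. C2, a protease of the classical pathway, was 3.41-fold lower in tubules in XX/Sry and 2.99-fold lower in W/Wv. Serping1, the inhibitor of the C1 proteases, was 2.34-fold lower in tubules in XX/Sry and 2.85-fold lower in W/Wv. Cyba, which encodes the membrane partner of Cybb in the NADPH oxidase, had 192 in XX/Sry tubules and 270.2 in W/Wv tubules, against 929 in XX/Sry whole testis and 1033 in W/Wv whole testis, and was 4.85-fold lower in tubules in XX/Sry and 3.82-fold lower in W/Wv. Rac2, the GTPase of that oxidase, was at least 3.54-fold lower in tubules in XX/Sry and 1.83-fold lower in W/Wv. Itgb2, the common chain of the beta2 integrins, was 2.60-fold lower in tubules in XX/Sry and 3.54-fold lower in W/Wv, whereas its partner Itgax was at least 1.38-fold higher in tubules in XX/Sry and at least 1.58-fold lower in W/Wv. Of the kinases, phosphatases and receptors of ITAM signalling 2 of 12 met the criterion; of its brightest genes, Sirpa was 1.08-fold lower in tubules in XX/Sry and 1.37-fold higher in W/Wv, and Ptpn6 was 1.31-fold lower in tubules in XX/Sry and 1.58-fold lower in W/Wv.

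The remaining lists also hold genes that many other cells use. The median log2 ratio of the 15 genes of efferocytosis and lysosome was 0.34 in XX/Sry and 0.20 in W/Wv, and the W/Wv value was as low as -0.35 at equal spike signal. Psap, the precursor of the saposins, was 1.79-fold higher in tubules in XX/Sry and 1.03-fold lower in W/Wv. Npc2, a lysosomal cholesterol carrier, was 1.22-fold higher in tubules in XX/Sry and 1.0-fold higher in W/Wv. MHC class II had medians of -0.61 in XX/Sry and -0.17 in W/Wv with 0 of 6 genes meeting the criterion, and the W/Wv value ran from -0.72 to 0.09 over all settings tried. H2-Aa, a class II chain, was 1.06-fold higher in tubules in XX/Sry and 1.5-fold higher in W/Wv, and Cd74, the invariant chain, was 1.21-fold lower in tubules in XX/Sry and 1.39-fold higher in W/Wv. Of the 9 genes of alternative activation 1 met it, and of the 11 of inflammatory activation 1 did, Casp1, which was under the bound on all arrays. In the first, Tgfb1 was 1.17-fold higher in tubules in XX/Sry and 2.95-fold higher in W/Wv, and Clec10a, a lectin of macrophages and dendritic cells, was at least 4.20-fold lower in tubules in XX/Sry and at least 3.11-fold lower in W/Wv. In the second, Nfkbia was 1.49-fold higher in tubules in XX/Sry and 1.06-fold lower in W/Wv, and Tlr2 was 1.23-fold higher in tubules in XX/Sry and 1.61-fold lower in W/Wv.

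Markers of other cells moved with the preparations as well. The summed signal of the 36 genes was 15671 in XX/Sry tubules and 15625 in W/Wv tubules, against 31975 in XX/Sry whole testis and 26320.2 in W/Wv whole testis. Large parts of the tubule sums came from Lgmn and Mpeg1, which ran the other way. Lgmn gave 4947 in XX/Sry tubules and 4297 in W/Wv tubules, and Mpeg1 gave 4355 and 2892. In whole testis Lgmn gave 4050 in XX/Sry and 2969 in W/Wv, and Mpeg1 gave 1491 and 1487. Leydig cells, the steroid-making cells of the interstitium, had 5 of 7 markers 2-fold or more lower in tubules in both genotypes, with medians of -1.10 in XX/Sry and -2.35 in W/Wv and summed signals of 35021 in XX/Sry tubules and 12229.8 in W/Wv tubules, against 71840.4 in XX/Sry whole testis and 50786 in W/Wv whole testis. Cyp17a1 was 2.02-fold lower in tubules in XX/Sry and 3.57-fold lower in W/Wv, and Ptgds was 1.01-fold higher in tubules in XX/Sry and 4.59-fold lower in W/Wv. The summed Leydig signal was higher in XX/Sry tubules than in W/Wv tubules, while the deposited sums of the 36 genes were close, at 15671 and 15625. Sertoli cell markers, which mark the tubules, had medians of 0.19 in XX/Sry and 0.63 in W/Wv with 0 of 12 past the criterion. Clu was 1.07-fold higher in tubules in XX/Sry and 1.72-fold higher in W/Wv, and Ctsl, which macrophages make too, was 1.01-fold lower in tubules in XX/Sry and 1.25-fold higher in W/Wv. Endothelial markers had medians of 0.59 in XX/Sry and 0.42 in W/Wv, the W/Wv value being -0.12 at equal spike signal, and peritubular myoid markers 0.39 in XX/Sry and 0.89 in W/Wv, the XX/Sry value being -0.22 with the dimmest probe set of each gene. Robo4 was 1.83-fold higher in tubules in XX/Sry and 1.11-fold higher in W/Wv, Esam was 1.61-fold higher in tubules in XX/Sry and 2.19-fold higher in W/Wv, Myl9 was 1.25-fold lower in tubules in XX/Sry and 1.29-fold higher in W/Wv and Acta2 was 1.42-fold higher in tubules in XX/Sry and 1.92-fold higher in W/Wv. The part of the other cell types in the ratios of the 36 genes was not tested.

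**Figure D4:**
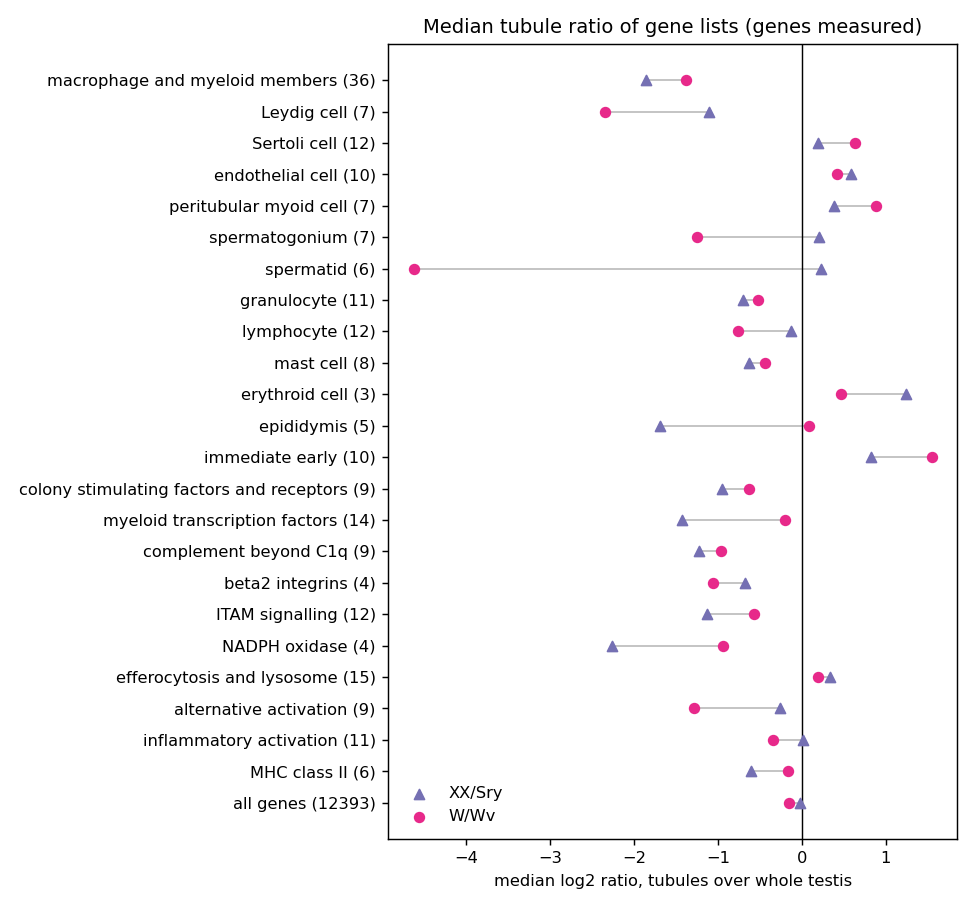
Median log2 ratio of tubules over whole testis for the 36 genes, each pathway list and each list of markers of other cells, in XX/Sry and in W/Wv, with the number of measured genes beside each name. The 36 genes lie at -1.85 in XX/Sry and -1.38 in W/Wv, and the Leydig markers are the other list of testicular somatic cells below -1 in both genotypes.

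Several markers of other blood cells lay under the bound. Of 11 granulocyte markers 3 were under the bound on all 4 arrays, and the summed signals were 452 in XX/Sry tubules and 656 in W/Wv tubules, against 745 in XX/Sry whole testis and 835 in W/Wv whole testis. The medians were -0.70 in XX/Sry and -0.52 in W/Wv, with 1 of 11 past the criterion. Its brightest gene Mmp9 was 2.04-fold lower in tubules in XX/Sry and 1.01-fold higher in W/Wv, and Ngp was 1.54-fold lower in tubules in XX/Sry and 1.43-fold lower in W/Wv. Of 12 lymphocyte markers 2 were under the bound on all arrays, and the summed signals were 778 in XX/Sry tubules and 704 in W/Wv tubules, against 882 in XX/Sry whole testis and 1019 in W/Wv whole testis. Their medians were -0.13 in XX/Sry and -0.76 in W/Wv, and over all settings tried they ran from -0.20 to 0.03 in XX/Sry and from -1.31 to 0.22 in W/Wv. By the criterion 1 of the 12 was lower in tubules and 1 was higher. Zap70 was 1.07-fold lower in tubules in XX/Sry and 1.79-fold lower in W/Wv, and the B cell gene Cd79a was near the bound on all 4 arrays. Mast cells need Kit, and 3 of their 8 markers were under the bound on all arrays, with medians of -0.63 in XX/Sry and -0.43 in W/Wv. The bright exception was Hdc, histidine decarboxylase, which was 1.38-fold higher in tubules in XX/Sry and 1.34-fold higher in W/Wv, while Cpa3 was 1.33-fold lower in tubules in XX/Sry and 1.45-fold lower in W/Wv. By the criterion 2 of the 8 mast cell markers were lower in tubules and 0 were higher. Immediate early genes, which tissue digestion can induce, had medians of 0.82 in XX/Sry and 1.54 in W/Wv, higher in tubules in both genotypes. Egr1 was 3.80-fold higher in tubules in XX/Sry and 2.12-fold higher in W/Wv, and Ier2 was 1.23-fold lower in tubules in XX/Sry and 1.5-fold higher in W/Wv.

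Germ cell markers separated the W/Wv samples from each other. The 6 spermatid markers had medians of 0.23 in XX/Sry and -4.61 in W/Wv, and Prm1, a protamine, had 156 in XX/Sry tubules and 23.8 in W/Wv tubules, against 99.0 in XX/Sry whole testis and 1546 in W/Wv whole testis. Prm2 was under the bound in XX/Sry tubules, W/Wv tubules and XX/Sry whole testis and had 522 in W/Wv whole testis. Spermatogonium markers had medians of 0.20 in XX/Sry and -1.24 in W/Wv: Uchl1 was 1.64-fold higher in tubules in XX/Sry and 1.18-fold lower in W/Wv, and Dazl was 1.18-fold lower in tubules in XX/Sry and 2.13-fold lower in W/Wv. The W/Wv samples thus differed in markers of early and late germ cells as well as in interstitial ones. Whether the preparation alone lies behind the W/Wv ratios was not tested. Of 3 erythroid markers, with medians of 1.24 in XX/Sry and 0.47 in W/Wv (-0.08 in W/Wv at equal spike signal), Alas2 was 2.49-fold higher in tubules in XX/Sry and 1.38-fold higher in W/Wv, and Slc4a1 was under the bound on all arrays. Of 5 epididymis markers, with medians of -1.69 in XX/Sry and 0.09 in W/Wv (-0.46 in W/Wv at equal spike signal), Lcn8 was at least 1.52-fold lower in tubules in XX/Sry and at least 1.14-fold higher in W/Wv, and Adam7 was under the bound on both XX/Sry arrays.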

How the data were processed

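Total RNA of 4 samples of adult mouse testis was hybridised for 16 h to Affymetrix 430A arrays, 1 array per group, and the intensity of each probe set was deposited by the authors as a MAS5 signal on a linear scale, made with Microarray Suite 5.0 per the labels' protocols. Of 22690 probe sets, 64 controls were left out and 22626 analysed. The platform annotation named 1 gene for 20380 of them, several for 691 and none for 1555. Single-gene probe sets gave 12393 genes, each by the probe set of highest mean log2 signal. Entrez IDs of 20351 probe sets matched the RefSeq table, and 0 symbols changed.

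Each ratio was taken between deposited signals with no further scaling. A gene counted at 2-fold or more the same way in both pairs. The bound was to exclude probe sets of poly(A) controls, which would leave 3 TrpnX probe sets. The dap, lys, phe and thr probe sets were also dim, so all 27 were kept, and the 3 alone are an alternative. The additive fit used limma 3.58.1 in R 4.3.3 on log2 signals, with eBayes and a trend on mean signal, two-sided, Benjamini-Hochberg adjustment and a threshold of 0.05, and was tested on simulated data, where more of its calls were false than the nominal share. Ratios and counts used Python 3.11.15 with pandas 2.3.3 and numpy 2.4.6. With arrays there are no read counts, and 1 array per group limits the precision.

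Members given in full are those whose brightest array reached its median signal, and of each other list the 2 genes of highest mean log2 signal are named. Trem2, Lst1 and the other dim genes are named to account for all members. Members, lists and tests were chosen with earlier results of these data known. Scaling, the choice of probe set, an added constant, the fold and the bound were varied, and equal spike signal, floored signals and the TrpnX bound were added after the data were seen.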

Additional observations from a re-analysis of the deposited data

Results flagged for a closer look

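Differences between groups were picked out where 2 ratios of the same kind ran opposite ways by 1.5-fold or more, a size chosen after the data were seen. With 1 array per group none of these differences was tested. For C1qa the log2 ratio of XX/Sry over W/Wv was -1.38 in tubules and 0.79 in whole testis, a difference of -2.17. For Cd68 it was -1.33 in tubules and 0.67 in whole testis, a difference of -2.00, with the XX/Sry tubules signal just above the bound. For F13a1 it was -0.99 in tubules and 0.95 in whole testis, a difference of -1.94. For Ctss it was -1.03 in tubules and 0.67 in whole testis, a difference of -1.70. For Lst1 it was -0.93 in tubules and 2.48 in whole testis, a difference of -3.41, with XX/Sry tubules and W/Wv whole testis under the bound. These 5 of the 36 genes compare with 3.24% of all genes. At equal spike signal C1qa and Cd68 alone passed that size, 2 genes against 1.8% of all genes, and with signals floored at the bound Lst1 did not pass it. The median double ratio of the 36 genes was -0.43 on the log2 scale, and 0.10 at equal spike signal, where all genes had 0.63.

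In the comparison of tubules with whole testis, Trem2 had log2 ratios of 1.46 in XX/Sry and -1.25 in W/Wv, a difference of 2.71, with XX/Sry whole testis under the bound and a second probe set that disagreed. Lst1 had -2.03 in XX/Sry and 1.38 in W/Wv, a difference of -3.41.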

How the results depend on the processing

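Of the 36 genes, 16 were 2-fold or more lower in tubules in both genotypes under every scaling, probe set choice, floor and added constant tried. The count of 21 ran from 17 with a constant added to 25 at equal spike signal, and was 14 among the 25 genes above the bound on all 4 arrays. Cd163, Cd86, Coro1a, Cybb and Fcgr1 dropped out under at least 1 of them. Mpeg1 was 2-fold higher in both genotypes after median centring (1 gene, against 0) and at 1.5-fold (1 gene). The preparation term called 0 genes higher with a constant added, at equal spike signal and without the trend, and 0 genes lower without the trend. 9 genes were called lower under all settings that kept the trend: C1qa, C1qb, C1qc, Tyrobp, Lyz2, Cd53, Ms4a7, F13a1 and Cbr2.

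The genotype results moved more. Genes 2-fold lower in XX/Sry whole testis numbered 2, but 1 with a constant added, with the dimmest probe set or above the TrpnX bound, and 0 with signals floored or only above the bound. In tubules the 7 became 3 with a constant, 2 at equal spike signal and 4 above the bound. In both preparations Coro1a was lower (1 gene) with the mean of probe sets or the dimmest one, Msr1 was lower at 1.5-fold (1 gene), and Msr1 was higher with the dimmest (1 gene). At equal spike signal the median genotype ratio in tubules was 0.23 and the median double ratio 0.10, both reversed. With the mean of probe sets Trem2 in XX/Sry reversed to -1.09, and Prm1 between genotypes in tubules to -0.029. With the dimmest probe set Trem2 gave -3.64, Msr1 between genotypes in whole testis 1.24, Prm1 -3.38, Mmp9 in XX/Sry tubules over whole testis 0.16, and the spermatid list between genotypes in tubules -0.14. The cause was not tested. Signals near the bound limit the dimmer genes. No replicates could be paired, because each group has 1 array and the labels carry no replicate numbers. The additive fit holds genotype as a term beside preparation, so it compares the preparations within genotype. No replicate could be left out.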
